A study of Cucumis melo with 24 samples.

Results

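Flesh of the cmnac-nor melon mutant was followed over 10 days of growth, from 15 to 25 days after pollination (DAP), by RNA sequencing. The comparison set the 3 cmnac-nor libraries of 25 DAP against the 3 of 15 DAP, which are 6 of the 24 libraries of the study. It covered 17658 of the 29980 genes listed, those at 1 TPM or more in at least 3 of the 24 libraries. TPM is a gene's share of the transcripts of its library, corrected for gene length.

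The study sequenced RNA from fruit flesh of Cucumis melo, wild type (WT) and cmnac-nor mutant, at 15, 25, 35 and 45 DAP. Each genotype and age had 3 libraries. The labels do not say what kind of mutation cmnac-nor carries, nor whether the libraries of a group came from different fruits or plants. The p-values thus measure only how far these samples spread, and that spread may be technical.

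CmNAC-NOR belongs to the NAC family of plant transcription factors, whose tomato counterpart, NON-RIPENING, is known as a switch that fruit needs to ripen. Melon fruit first expands its flesh cells and fills its vacuoles, and later ripens with a rise of ethylene, sugar, aroma and wall breakdown. Ethylene is made from S-adenosylmethionine by 1-aminocyclopropane-1-carboxylate (ACC) synthase and ACC oxidase. It is sensed by receptors that repress the response until the hormone binds, and it acts through EIN3, which EIN3-binding F-box proteins send to degradation.

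The genes that rose included an ethylene receptor, an IAA16-like gene, an alcohol dehydrogenase-like gene and a pair of pectin acetylesterases. Of 26 small heat shock proteins, a subset drawn after the values were seen, 10 rose and 4 fell. The genes that fell included 12 of 18 chlorophyll a-b binding proteins, 10 of 27 aquaporins (2 rose), 7 of 27 cysteine proteinase inhibitors, 16 of 70 bHLH factors (4 rose) and several lipoxygenases. At an adjusted p under 0.05 (limma, Benjamini-Hochberg over all genes tested), 3366 genes were called, 19.1% of those tested. Of these, 1932 were higher at 25 DAP (10.9%) and 1434 were lower (8.12%), and 1211 genes (6.86%) changed by 2-fold or more on the log2(TPM + 1) scale, 682 upward (3.86%) and 529 downward (3%). Log2 changes below are on this scale. The shares over all genes, 10.9% higher and 8.12% lower, are the background for every list count in the text. All 3 libraries of 25 DAP lay above all 3 of 15 DAP for 3055 genes (17.3%) and below them for 2365 (13.4%). Among called genes these were 1769 (10%) and 1267 (7.18%). The median gene moved by 0.03 on that scale. Another 2486 genes had an unadjusted p under 0.05 without passing the adjusted threshold.

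The 15 DAP libraries differed among themselves almost as much as the ages did. Pearson correlations of log2(TPM + 1) lay between 0.913 and 0.957 within 15 DAP, between 0.957 and 0.971 within 25 DAP and between 0.905 and 0.937 across the ages. The first principal component, with 43.4% of the variance, separated the ages. The second, with 28.6%, spread the 15 DAP libraries, with replicate 1 at 62.6, replicate 2 at -5.8 and replicate 3 at -63.2. Fitted to the 6 libraries alone, the model called 705 genes, of which 643 were among the 3366. Without 15 DAP replicate 1 the fit called 2687 genes higher and 1332 lower, and without 15 DAP replicate 3 it called 1581 higher and 1706 lower. Median-of-ratios scaling in place of the deposited scale gave 1670 higher and 2014 lower, so the balance of directions depends on the scale. The 15 DAP libraries spread 1.26 times as far as the pooled estimate that the 24-library fit uses and the 25 DAP libraries 0.861 times, so the pooled spread is too small for the younger age. For this reason each paragraph gives, for the genes whose call ended in the 6-library fit, the adjusted p of that fit. Genes given no such value kept their call there. List counts in that fit were never larger than those in the main fit, and they are given for some lists only.

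**Figure D1:**
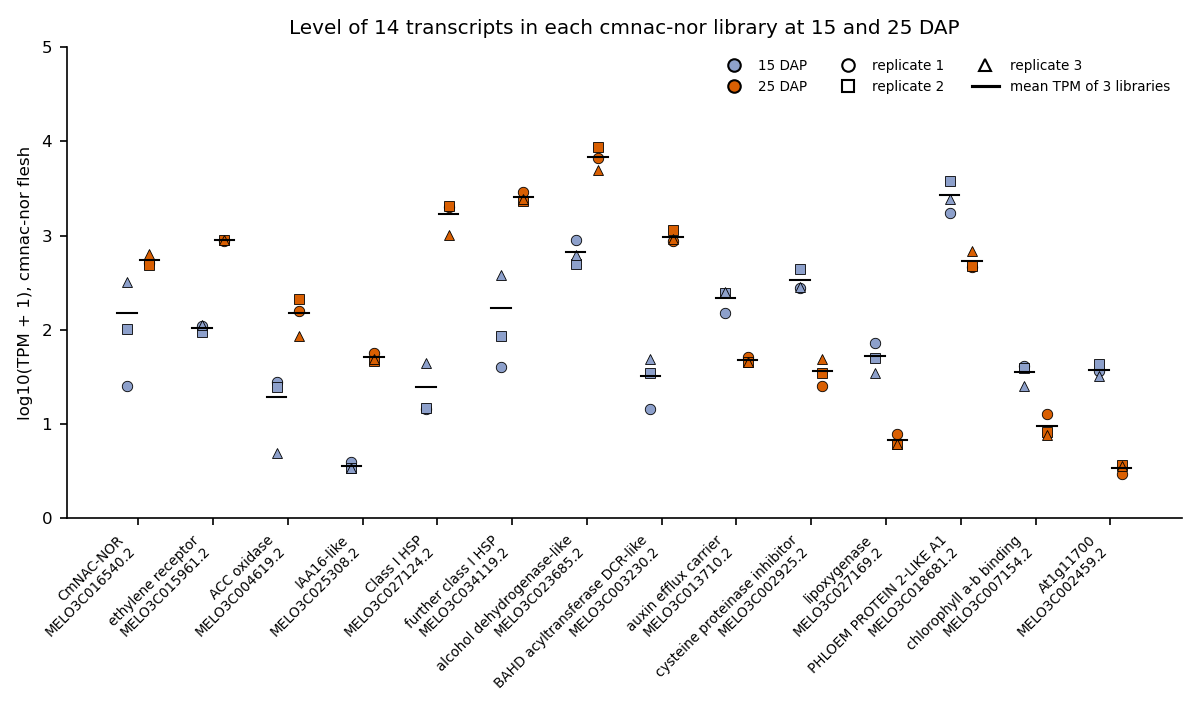
Levels of 14 transcripts in cmnac-nor flesh as log10(TPM + 1), with 1 symbol per library, circles, squares and triangles for replicates 1, 2 and 3, and a line at the mean TPM of each age. The 3 libraries of 25 DAP (orange) lie above or below all 3 libraries of 15 DAP (blue) for every transcript drawn. For those named as the largest changes the rule required this. The 15 DAP libraries of CmNAC-NOR and of MELO3C034119.2 spread widely.

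CmNAC-NOR itself (MELO3C016540.2, an identifier known from published work, which the table describes only as a NAC domain protein) was read at 24.6, 102 and 319.8 TPM at 15 DAP and 505, 482 and 642 TPM at 25 DAP. The mutant thus carried its transcript at both ages, and every 25 DAP library lay above every 15 DAP library, which ranged widely. The change passed the test over 24 libraries (log2 change 2.51, SE 0.52, adjusted p = 0.0029) and missed it in the 6-library fit (adjusted p = 0.179). In WT the same step was not called (log2 change 0.91, SE 0.52, adjusted p = 0.14). The steps of the genotypes did not differ by the test (difference of steps 1.607, SE 0.74, adjusted p = 0.0794). That difference was called with weights per group and without 15 DAP replicate 3.

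Transcription factor families gave different balances of rises and falls, set beside 10.9% higher and 8.12% lower over all genes. Of 50 WRKY genes tested, 13 were higher and 5 lower, of 70 MYB genes 12 and 4, and of 70 bHLH genes 4 and 16, with a median change of -0.40 for the last against 0.03 over all genes. The bHLH count was 23 lower without 15 DAP replicate 3, 10 without 25 DAP replicate 2 and 2 in the 6-library fit. WRKY calls numbered 5 higher and 2 lower without 25 DAP replicate 2 and 6 without 15 DAP replicate 2 or in the 6-library fit. MYB calls numbered 10 lower without 15 DAP replicate 1, and 2 higher and 0 lower in the 6-library fit. ERF factors, the DNA-binding proteins named for ethylene response, numbered 10 higher and 7 lower of 84, NAC factors 5 and 5 of 53, and MADS-box factors 1 and 3 of 36. The ERF shares (11.9% and 8.33%) and the NAC shares (9.43% and 9.43%) were near those over all genes. Without 25 DAP replicate 2 the ERF counts were 6 and 2 and the number of NAC genes lower was 1. The number of ERF genes lower was also 2 without 15 DAP replicate 2 or 25 DAP replicate 3, and in the 6-library fit 0 ERF and 0 NAC genes were lower.

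An ERF gene (MELO3C022358.2) stood at 3.27, 6.77 and 2.99 TPM at 15 DAP and 33.5, 27.7 and 35.3 TPM at 25 DAP, with no overlap between the ages (log2 change 2.69, SE 0.29, adjusted p = 9.55e-06). In WT it fell over the same days (log2 change -1.23, SE 0.29, adjusted p = 0.00112), and the steps differed (difference of steps 3.92, SE 0.41, adjusted p = 4.8e-07). A more abundant ERF gene (MELO3C017940.2) was read at 44.5, 14.99 and 19.9 TPM at 15 DAP and 185, 252 and 189 TPM at 25 DAP and rose (log2 change 3.07, SE 0.46, adjusted p = 0.000211). Another ERF gene (MELO3C006688.2) rose from a low level, with 0.86, 1.51 and 0.57 TPM at 15 DAP and 8.95, 15.5 and 6.01 TPM at 25 DAP. This was a log2 change of 2.43 (SE 0.30, adjusted p = 3.8e-05).

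The median change of the 50 WRKY genes was 0.08, and the 2 described here are among the called members with the smallest adjusted p. MELO3C009127.2 was at 22.9, 21.3 and 17.1 TPM at 15 DAP and 164, 261 and 104 TPM at 25 DAP (log2 change 2.96, SE 0.59, adjusted p = 0.00224). MELO3C011432.2 was at 11.2, 13.5 and 13.9 TPM at 15 DAP and 41.9, 38.04 and 32.8 TPM at 25 DAP. The test gave a log2 change of 1.48 (SE 0.20, adjusted p = 7.39e-05). In both, the lowest 25 DAP library was above the highest 15 DAP library.

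The regulator named with the largest fall was a bHLH gene (MELO3C034003.2), with 100.1, 56.9 and 5.74 TPM at 15 DAP and 0.07, 0 and 0.10 TPM at 25 DAP. Its 15 DAP libraries ranged widely and its 25 DAP libraries were near 0 (log2 change -5.01, SE 0.64, adjusted p = 4.61e-05). bHLH48 (MELO3C009653.2) was read at 71.01, 93.7 and 67.3 TPM at 15 DAP and 23.9, 27.6 and 17.2 TPM at 25 DAP, and fell without overlap (log2 change -1.72, SE 0.23, adjusted p = 6.93e-05), as did bHLH71 (MELO3C003421.2, log2 change -1.37, SE 0.17, adjusted p = 4.24e-05). A bHLH130-like gene (MELO3C023532.2) went the other way, with 5.83, 5.24 and 6.95 TPM at 15 DAP and 28.6, 27.8 and 29.02 TPM at 25 DAP. It was a log2 change of 2.08 (SE 0.38, adjusted p = 0.001). Among NAC genes other than CmNAC-NOR, NAC55 (MELO3C016536.2) was at 13.4, 50.9 and 93.8 TPM at 15 DAP and 306, 287 and 419 TPM at 25 DAP (log2 change 3.01, SE 0.51, adjusted p = 0.000576), and its step did not differ by the test from that in WT (difference of steps 1.03, SE 0.72, adjusted p = 0.248). NAC2 (MELO3C023195.2) was at 10.8, 9.19 and 7.42 TPM at 15 DAP and 83.1, 103 and 32.6 TPM at 25 DAP. The fitted log2 change was 2.73 (SE 0.55, adjusted p = 0.00232). In the 6-library fit the calls of MELO3C034003.2 (adjusted p = 0.0653) and MELO3C016536.2 (adjusted p = 0.0818) ended.

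Of 17 circadian clock genes tested, 6 were lower at 25 DAP and 0 higher. REVEILLE 1-like (MELO3C025091.2), from a family of morning-phased MYB-like factors, was at 30.6, 34.7 and 41.3 TPM at 15 DAP and 17.3, 11.8 and 17.3 TPM at 25 DAP. On the log2 scale it moved by -1.16 (SE 0.17, adjusted p = 0.00019). The two-component response regulator-like protein APRR2 (MELO3C003375.2), whose relatives in cucurbits are known for fruit pigment, was counted among the clock genes by its description and was at 6.49, 101 and 147 TPM at 15 DAP and 3.09, 7.26 and 4.43 TPM at 25 DAP. At 15 DAP replicate 1 was as low as the 25 DAP libraries and the other two were far above them (log2 change -3.09, SE 0.73, adjusted p = 0.00654). It rose in WT (log2 change 4.58, SE 0.73, adjusted p = 2.29e-05), and the steps differed (difference of steps -7.67, SE 1.03, adjusted p = 8.5e-06). Its mutant call ended in the 6-library fit (adjusted p = 0.196), where 1 clock gene was lower.

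Ethylene genes were the hormone group with the highest share of rises. Of 12 genes of perception and signalling, 6 were higher and 1 was lower, and of 29 genes of synthesis, 8 were higher and 0 lower, against 10.9% higher and 8.12% lower over all genes. The median changes were 0.47 and 0.33. The perception count stayed at 6 higher without any 1 of the 6 libraries and was 4 in the 6-library fit, where the synthesis count was 3. Summed over the perception list, the level ran from 1167 to 1763 TPM at 15 DAP and from 2753 to 2975 TPM at 25 DAP.

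The gene with the smallest adjusted p of the step was an ethylene receptor (MELO3C015961.2). It was read at 109, 92.7 and 112 TPM at 15 DAP and 885, 892 and 889 TPM at 25 DAP. The 3 libraries of each age lay close together and the ages did not overlap (log2 change 3.08, SE 0.13, adjusted p = 9.43e-11). In WT the same gene fell, from 126 ± 15.7 TPM (SD, n = 3) to 13.1 ± 2.31 TPM (SD, n = 3), and the steps went in opposite directions (difference of steps 6.25, SE 0.19, adjusted p = 1.44e-13). At later ages the mutant level was 79.5 ± 9.15 TPM (SD, n = 3) at 35 DAP and 257 ± 43.7 TPM (SD, n = 3) at 45 DAP. A second receptor gene (MELO3C006451.2) was at 43.1, 65.8 and 94.9 TPM at 15 DAP and 200.5, 196 and 202 TPM at 25 DAP and rose as well (log2 change 1.61, SE 0.21, adjusted p = 6.75e-05). Both EIN3-binding F-box genes named by the rule rose. MELO3C003696.2 was at 46.8, 71.2 and 74.1 TPM at 15 DAP and 185, 156 and 203 TPM at 25 DAP (log2 change 1.51, SE 0.22, adjusted p = 0.000181). MELO3C004498.2 was at 83.2, 77.7 and 94.2 TPM at 15 DAP and 209, 214 and 232 TPM at 25 DAP. Its log2 change was 1.35 (SE 0.20, adjusted p = 0.000182).

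On the synthesis side, an ACC oxidase (MELO3C004619.2) was read at 27.2, 23.9 and 3.88 TPM at 15 DAP and 156, 209.8 and 85.4 TPM at 25 DAP. All 25 DAP libraries were above all 15 DAP libraries (log2 change 3.23, SE 0.59, adjusted p = 0.00106), whereas in WT it fell (log2 change -3.68, SE 0.59, adjusted p = 2.45e-05), and the difference of steps was 6.91 (SE 0.83, adjusted p = 2.52e-06). A further ACC oxidase (MELO3C026436.2) was at 28.8, 21.8 and 91.2 TPM at 15 DAP and 244, 151 and 414 TPM at 25 DAP (log2 change 2.65, SE 0.51, adjusted p = 0.0016). One more (MELO3C016225.2) rose from 14.6, 11.2 and 11.8 TPM to 20.4, 27.04 and 20.7 TPM (log2 change 0.81, SE 0.15, adjusted p = 0.00141). All 3 of these calls ended in the 6-library fit, with adjusted p = 0.0854, 0.0878 and 0.0634 in that order.

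**Figure D2:**
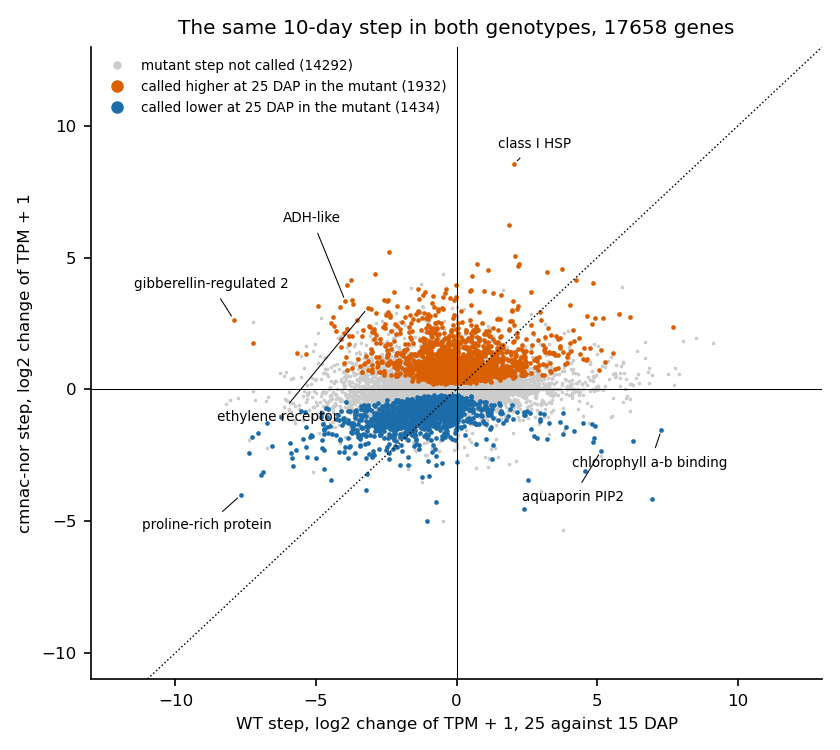
Each point is 1 of 17658 genes, with its log2 change from 15 to 25 DAP in WT on the x axis and in cmnac-nor on the y axis, and a dotted line where both are equal. Points are grey where the mutant step was not called, orange for the 1932 genes called higher and blue for the 1434 called lower, and the ethylene receptor and the alcohol dehydrogenase-like gene lie in the upper left, where the mutant step was upward and the WT step downward.

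Set beside WT over the same ages, the mutant step called fewer genes, and its calls were partly shared. In WT 11190 genes were called (63.4%), 3275 higher (18.5%) and 7915 lower (44.8%), and the median absolute log2 change was 0.718 against 0.289 in the mutant. Of the genes higher in the mutant, 648 were also higher in WT (33.5% of the mutant calls and 19.8% of the WT calls), 565 were lower in WT (29.2%) and 719 were not called. Of the genes lower in the mutant, 1046 were also lower in WT (72.9% and 13.2%) and 100 were higher (6.97%). The steps share no library, and their log2 changes correlated across genes with a Pearson coefficient of 0.221 and a Spearman coefficient of 0.26, where genes are not independent replicates. The test of the difference between the steps called 8788 genes (49.8%), of which 6531 had the higher step in the mutant (37%) and 2257 the lower step (12.8%). The median log2 change was -0.359 in WT and 0.034 in the mutant, and directions of this difference moved with the scale in some lists. Under median-of-ratios scaling, heat shock and chaperone genes went from 67 higher and 49 lower in the mutant to 42 and 85. Cell cycle genes went from 34 and 5 to 22 and 16, and photosystem and light harvesting genes from 5 and 54 to 4 and 55. The test of the difference called all 565 and all 100 genes that moved in opposite directions. That adds nothing, because both of their opposed steps had already been called in the same fit.

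Auxin genes were mixed, with 10 higher (9.26%) and 17 lower (15.7%) of 108 tested, against 10.9% and 8.12% over all genes. In the 6-library fit these counts were 4 and 6. An IAA16-like gene (MELO3C025308.2), from the Aux/IAA family of auxin response repressors, was read at 2.92, 2.45 and 2.42 TPM at 15 DAP and 55.6, 46.02 and 48.4 TPM at 25 DAP. The ages were far apart and the libraries of each close together (log2 change 3.82, SE 0.22, adjusted p = 5.46e-09), and in WT it fell (log2 change -1.39, SE 0.22, adjusted p = 2.41e-05), and the difference of steps was 5.21 (SE 0.31, adjusted p = 1.18e-09). SAUR36 (MELO3C022337.2), a small auxin-induced gene, was at 22.1, 47.6 and 28.8 TPM at 15 DAP and 329, 242 and 334 TPM at 25 DAP and rose (log2 change 3.21, SE 0.36, adjusted p = 1.3e-05). An auxin efflux carrier (MELO3C013710.2), which moves auxin out of cells, was at 148, 244 and 253 TPM at 15 DAP and 50.6, 44.6 and 44.04 TPM at 25 DAP and fell (log2 change -2.15, SE 0.28, adjusted p = 5.09e-05), as it did in WT (log2 change -2.17, SE 0.28, adjusted p = 1.65e-06). An auxin response factor (MELO3C016272.2) fell from 35.8, 23.7 and 27.7 TPM to 12.1, 11.7 and 13.1 TPM (log2 change -1.16, SE 0.16, adjusted p = 0.000117).

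Gibberellin genes numbered 3 higher and 7 lower of 40, yet their summed level ran from 2159 to 3381 TPM at 15 DAP and from 5376 to 7220 TPM at 25 DAP. A pair of small gibberellin-regulated (GASA) proteins carried most of that rise. Gibberellin-regulated protein 2 (MELO3C011008.2) was read at 196, 544 and 1014 TPM at 15 DAP and 3169, 4292 and 1975 TPM at 25 DAP, without overlap (log2 change 2.65, SE 0.73, adjusted p = 0.0163). In WT it fell from 1699 ± 432 TPM (SD, n = 3) to 6.07 ± 2.45 TPM (SD, n = 3), and the difference of steps was 10.58 (SE 1.03, adjusted p = 2.18e-07). A gibberellin-regulated protein 11-like gene (MELO3C003752.2) was at 73.6, 155 and 824 TPM at 15 DAP and 1327, 1470.2 and 1409 TPM at 25 DAP (log2 change 2.72, SE 0.65, adjusted p = 0.00735), with 15 DAP replicate 3 far above the other two. Another family member (MELO3C018503.2) fell, with 217, 174 and 149.5 TPM at 15 DAP and 35.2, 25.6 and 50.2 TPM at 25 DAP (log2 change -2.29, SE 0.54, adjusted p = 0.00699), a call that ended with weights per group (adjusted p = 0.0511). In the 6-library fit the rises of MELO3C011008.2 (adjusted p = 0.093) and MELO3C003752.2 (adjusted p = 0.148) ended, and that of MELO3C011008.2 also ended without 15 DAP replicate 1 (adjusted p = 0.0653) and without 25 DAP replicate 2 (adjusted p = 0.0722).

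Of 48 cytokinin genes, 6 were higher (12.5%) and 7 lower (14.6%), against 10.9% and 8.12% over all genes. Response regulators, the last step of the cytokinin phosphorelay, moved both ways. MELO3C005156.2 was at 93.8, 70.4 and 70.7 TPM at 15 DAP and 266, 298 and 214 TPM at 25 DAP (log2 change 1.71, SE 0.29, adjusted p = 0.000603). MELO3C025295.2 was at 19.9, 20.3 and 20.9 TPM at 15 DAP and 6.48, 5.16 and 9.07 TPM at 25 DAP. This was a log2 change of -1.47 (SE 0.33, adjusted p = 0.00487). A histidine-containing phosphotransfer gene (MELO3C021379.2), which passes the phosphate on to them, fell with 427, 321 and 204 TPM at 15 DAP and 109, 62.2 and 88.1 TPM at 25 DAP (log2 change -1.83, SE 0.23, adjusted p = 4.3e-05), a call that ended in the 6-library fit (adjusted p = 0.0539).

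Abscisic acid genes numbered 4 higher and 2 lower of 28, and 2 higher without 15 DAP replicate 1, 15 DAP replicate 2 or 25 DAP replicate 3. A 9-cis-epoxycarotenoid dioxygenase (MELO3C016224.2), which opens the pathway to abscisic acid by cutting a carotenoid, was read at 9.22, 10.6 and 15.1 TPM at 15 DAP and 27.9, 23.8 and 28.8 TPM at 25 DAP and rose (log2 change 1.16, SE 0.18, adjusted p = 0.000259). Its rise was smaller than in WT (log2 change 4.63, SE 0.18, adjusted p = 1.1e-12), and the difference of steps was -3.47 (SE 0.25, adjusted p = 1.01e-08). An abscisic acid 8'-hydroxylase (MELO3C016219.2), which starts the breakdown of the hormone, was at 33.3, 7.15 and 1.54 TPM at 15 DAP and 126, 142 and 97.5 TPM at 25 DAP, with 15 DAP libraries that ranged widely (log2 change 3.77, SE 0.76, adjusted p = 0.00235). The call of the hydroxylase ended in the 6-library fit (adjusted p = 0.0922).

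**Figure D3:**
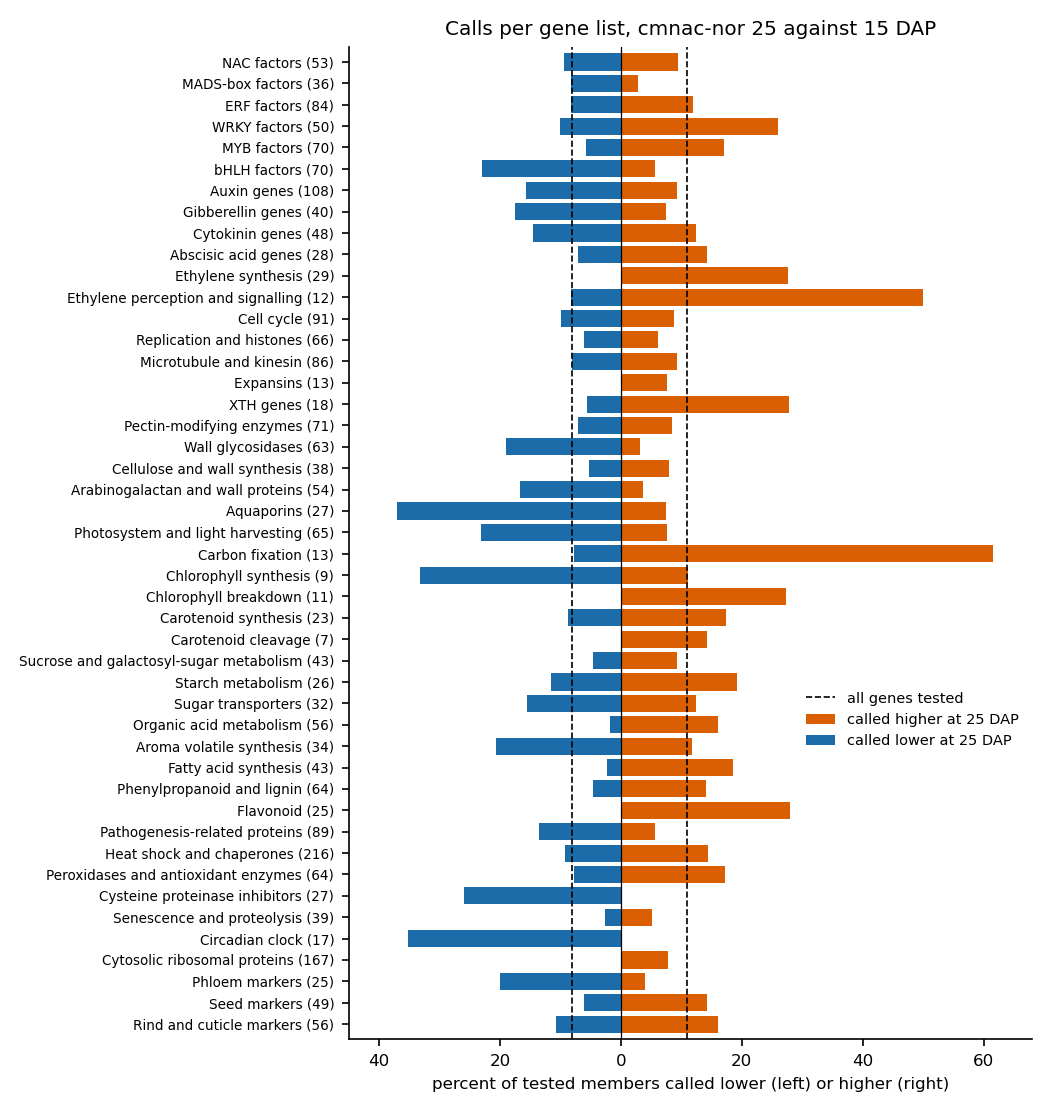
Bars give, for each list with at least 5 tested members, the percent of its tested members called higher (orange, right) or lower (blue, left) at 25 DAP in cmnac-nor, with the number tested in brackets. Dashed lines mark the shares over all genes, 10.9% and 8.12%, and the bars of carbon fixation and ethylene perception reach farthest to the right and those of aquaporins and clock genes farthest to the left.

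Cell cycle and microtubule genes were called in shares near those over all genes, 10.9% higher and 8.12% lower. Replication and histone genes were called in smaller shares, 6.06% each way. Cell cycle genes numbered 8 higher and 9 lower of 91, replication and histone genes 4 and 4 of 66, and microtubule and kinesin genes 8 and 7 of 86. The microtubule counts were 14 and 2 without 15 DAP replicate 1, 5 and 17 without 15 DAP replicate 3, 4 and 4 without 15 DAP replicate 2, 3 and 3 without 25 DAP replicate 2 and 6 and 4 without 25 DAP replicate 3. The number of replication and histone genes lower was 7 without 15 DAP replicate 1, 1 without 15 DAP replicate 2, 2 without 25 DAP replicate 1 and 0 without 25 DAP replicate 2. Cyclin-D4-1-like (MELO3C011068.2), a D-type cyclin, was at 17.1, 20.4 and 23.3 TPM at 15 DAP and 46.2, 56.4 and 39.7 TPM at 25 DAP. The test gave a log2 change of 1.18 (SE 0.15, adjusted p = 5.82e-05). Of 167 cytosolic ribosomal protein genes, 13 were higher (7.78%) and 0 lower, where 8.12% of all genes were lower. The count higher moved with single libraries. It was 30 without 15 DAP replicate 1, 3 without 15 DAP replicate 2, 4 without 15 DAP replicate 3, 1 without 25 DAP replicate 2 and 0 in the 6-library fit. S25 (MELO3C009036.2) rose from 75.1, 65.3 and 60.01 TPM to 103, 116 and 92.2 TPM (log2 change 0.63, SE 0.12, adjusted p = 0.00173), and its call ended in the 6-library fit (adjusted p = 0.061). In WT 149 of the 167 were lower, and the difference of steps was called with the mutant higher for 151 of them, a count between 136 and 151 under every alternative run.

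Pectin-modifying enzymes numbered 6 higher and 5 lower of 71, with a median of -0.01, and their balance turned on single libraries. It was 10 and 0 without 15 DAP replicate 1, 6 and 10 without 15 DAP replicate 3, and between 1 and 3 lower without any of the other libraries. The 6-library fit gave 3 higher and 0 lower. A pectin acetylesterase (MELO3C006917.2), which removes acetyl groups, was read at 18.6, 14.8 and 19.2 TPM at 15 DAP and 61.2, 65.6 and 79.1 TPM at 25 DAP (log2 change 1.91, SE 0.32, adjusted p = 0.00045). Another (MELO3C016210.2) was at 33.01, 30.2 and 33.5 TPM at 15 DAP and 130.0, 111 and 90.2 TPM at 25 DAP (log2 change 1.73, SE 0.29, adjusted p = 0.00051). Neither gene had overlapping libraries, and both fell in WT (MELO3C006917.2 log2 change -4.10, SE 0.32, adjusted p = 2.78e-09; MELO3C016210.2 log2 change -3.81, SE 0.29, adjusted p = 2.41e-09). The differences of steps were 6.02 and 5.54. A pectate lyase (MELO3C003093.2), which cuts the pectin backbone, rose from 20.3, 18.8 and 20.7 TPM to 28.7, 27.96 and 30.7 TPM (log2 change 0.52, SE 0.10, adjusted p = 0.00149).

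Of 13 expansins tested, 1 rose and 0 fell, though 3 were lower without 15 DAP replicate 3. That expansin-like gene (MELO3C003371.2), from a family that loosens walls without cutting them, was at 2.34, 3.01 and 3.14 TPM at 15 DAP and 17.02, 22.8 and 11.6 TPM at 25 DAP (log2 change 2.20, SE 0.30, adjusted p = 0.000104) and fell in WT (log2 change -4.28, SE 0.30, adjusted p = 1.08e-09), and the difference of steps was 6.48 (SE 0.43, adjusted p = 3.79e-09). Xyloglucan endotransglucosylase/hydrolases (XTH), which cut and rejoin xyloglucan, numbered 5 higher and 1 lower of 18, but 2 higher without 15 DAP replicate 2, 3 without 25 DAP replicate 1 and 1 in the 6-library fit. MELO3C017481.2 was at 12.3, 5.70 and 4.10 TPM at 15 DAP and 63.5, 38.4 and 26.5 TPM at 25 DAP (log2 change 2.42, SE 0.60, adjusted p = 0.00942). Its call ended in the 6-library fit (adjusted p = 0.06) and at a pseudocount of 0.1 (adjusted p = 0.0503).

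Wall glycosidases fell more often than they rose, with 2 higher and 12 lower of 63, and 7 lower without 15 DAP replicate 2 and 3 in the 6-library fit. Beta-glucosidase MELO3C030711.2 was at 24.6, 19.7 and 21.7 TPM at 15 DAP and 4.37, 3.45 and 4.20 TPM at 25 DAP (log2 change -2.20, SE 0.33, adjusted p = 0.000224). MELO3C009674.2, one of the 2 that rose, was at 1.80, 2.26 and 3.37 TPM at 15 DAP and 31.9, 24.02 and 23.2 TPM at 25 DAP (log2 change 2.99, SE 0.27, adjusted p = 1.43e-06). Arabinogalactan and other wall proteins numbered 2 higher and 9 lower of 54, and cellulose and wall synthesis genes 3 and 2 of 38. Without 15 DAP replicate 1 these counts were 5 and 8 for the former and 6 and 1 for the latter, and 6 of the latter were lower without 15 DAP replicate 3. The 14 kDa proline-rich protein dc2.15 (MELO3C013954.2) was read at 292, 258 and 70.8 TPM at 15 DAP and 15.3, 5.72 and 10.7 TPM at 25 DAP (log2 change -4.02, SE 0.65, adjusted p = 0.000387). It had no overlap, which the rule for the largest changes required. It also fell in WT (log2 change -7.68, SE 0.65, adjusted p = 9.98e-09).

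Falls outnumbered rises among aquaporins, the membrane channels for water. Of 27 tested, 10 were lower and 2 higher, the median change was -0.84, and their summed level ran from 4116 to 5658 TPM at 15 DAP and from 2220 to 3056 TPM at 25 DAP. The count stayed between 7 and 10 lower without any 1 library and was 2 in the 6-library fit. The most abundant of those named (MELO3C025164.2) was at 1718, 2215 and 1365 TPM at 15 DAP and 1029, 732 and 767 TPM at 25 DAP (log2 change -1.05, SE 0.20, adjusted p = 0.00144), and it fell in WT too (log2 change -1.39, SE 0.20, adjusted p = 7.22e-06). An aquaporin PIP2 gene (MELO3C012429.2) was at 28.2, 15.1 and 10.9 TPM at 15 DAP and 5.32, 1.78 and 4.83 TPM at 25 DAP. It was a log2 change of -1.93 (SE 0.36, adjusted p = 0.00142). Another PIP2 gene (MELO3C013347.2) was at 292, 369 and 145 TPM at 15 DAP and 52.4, 35.3 and 60.8 TPM at 25 DAP (log2 change -2.35, SE 0.60, adjusted p = 0.0111), while in WT it rose from 304 ± 246 TPM (SD, n = 3) to 8814 ± 662 TPM (SD, n = 3), and the difference of steps was -7.48 (SE 0.85, adjusted p = 1.29e-06). In the 6-library fit the calls of MELO3C025164.2 (adjusted p = 0.0865) and MELO3C012429.2 (adjusted p = 0.089) ended. That of MELO3C013347.2 ended without 15 DAP replicate 2 (adjusted p = 0.0559) and without 25 DAP replicate 2 (adjusted p = 0.0531).

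Plastid genes split, with falls among light-harvesting genes and rises among carbon fixation genes. Of 65 genes of the photosystems and light harvesting, 15 were lower and 5 higher, with a median of -0.24. Among the 18 chlorophyll a-b binding proteins tested, which hold the pigments of the antenna, 12 were lower and 0 higher, with called changes from -1.99 to -1.22. The number of the 65 called lower depended on the libraries. It was 3 without either replicate 2, 7 without 15 DAP replicate 1, 9 without 25 DAP replicate 3, 3 with weights per group and 2 in the 6-library fit, while the median ran from -0.35 to -0.12.

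In WT 55 of the 65 were higher at 25 DAP, and all 18 of the chlorophyll a-b binding genes were. The difference of steps was called with the mutant lower for 54 of the 65 and for all 18, and for 52 to 55 of the 65 under the alternatives run. MELO3C007154.2 was read at 40.5, 38.6 and 24.1 TPM at 15 DAP and 11.7, 7.29 and 6.72 TPM at 25 DAP in the mutant, without overlap (log2 change -1.89, SE 0.41, adjusted p = 0.00371). MELO3C012912.2 was at 68.7, 159 and 145 TPM at 15 DAP and 34.5, 17.2 and 42.3 TPM at 25 DAP (log2 change -1.95, SE 0.45, adjusted p = 0.0054). In WT it rose to 1452 ± 149 TPM (SD, n = 3) at 25 DAP, and the difference of steps was -8.23 (SE 0.63, adjusted p = 1.67e-08). In the mutant it stood at 587 ± 245 TPM (SD, n = 3) at 35 DAP and 1503 ± 309.6 TPM (SD, n = 3) at 45 DAP. MELO3C002727.2 was at 43.5, 63.7 and 47.8 TPM at 15 DAP and 21.6, 14.7 and 15.1 TPM at 25 DAP (log2 change -1.54, SE 0.42, adjusted p = 0.0159) against a rise in WT to 2122 ± 598 TPM (SD, n = 3), and the difference of steps was -8.83 (SE 0.59, adjusted p = 4.22e-09). In the 6-library fit the call of MELO3C012912.2 ended (adjusted p = 0.0834), and that of MELO3C002727.2 ended without 15 DAP replicate 2 (adjusted p = 0.0692), without 25 DAP replicate 2 (adjusted p = 0.063) and with weights per group (adjusted p = 0.084).

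Carbon fixation was the list with the highest share of rises, 8 higher and 1 lower of 13, with a median of 1.02. The number higher was 7 to 9 without any 1 library and 1 in the 6-library fit. Phosphoribulokinase (MELO3C026722.2), which makes the CO2 acceptor of the Calvin cycle, was at 0.93, 1.62 and 4.35 TPM at 15 DAP and 17.97, 15.3 and 13.8 TPM at 25 DAP (log2 change 2.47, SE 0.43, adjusted p = 0.000741). Another gene of the enzyme (MELO3C013811.2) was at 6.52, 7.05 and 11.02 TPM at 15 DAP and 26.9, 14.7 and 20.9 TPM at 25 DAP (log2 change 1.24, SE 0.23, adjusted p = 0.00134). Rubisco activase (MELO3C008231.2), which keeps the carboxylating enzyme open, was at 15.1, 15.5 and 28.7 TPM at 15 DAP and 64.9, 38.6 and 55.3 TPM at 25 DAP. The fitted log2 change was 1.41 (SE 0.29, adjusted p = 0.00242). In these genes each 25 DAP library was above each 15 DAP library. In WT 12 of the 13 were higher, with a median of 1.83. The difference of steps was called with the mutant lower for 9 of the 13 and higher for 1. The number lower was 9 to 10 under the alternatives run. In the 6-library fit the calls of MELO3C013811.2 (adjusted p = 0.0817) and MELO3C008231.2 (adjusted p = 0.0766) ended.

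Pigment genes moved both ways. In the lists below, 11.1% to 27.3% of members were higher and 0% to 33.3% lower, against 10.9% and 8.12% over all genes. Chlorophyll synthesis numbered 1 higher and 3 lower of 9, and a magnesium chelatase subunit (MELO3C023131.2), at the branch to chlorophyll, was at 24.7, 21.9 and 26.7 TPM at 15 DAP and 9.24, 6.83 and 6.89 TPM at 25 DAP (log2 change -1.56, SE 0.33, adjusted p = 0.0034), against a rise in WT (log2 change 4.19, SE 0.33, adjusted p = 4.35e-09), and the difference of steps was -5.75 (SE 0.47, adjusted p = 3.2e-08). Chlorophyll breakdown numbered 3 higher and 0 lower of 11, and a pheophytinase (MELO3C023590.2), which strips the phytol tail, was at 33.9, 42.1 and 108 TPM at 15 DAP and 221, 146 and 310.2 TPM at 25 DAP (log2 change 1.98, SE 0.36, adjusted p = 0.00104; 6-library fit adjusted p = 0.0968). Carotenoid synthesis numbered 4 higher and 2 lower of 23, and carotenoid cleavage 1 and 0 of 7. In the 6-library fit the counts were 0 and 1 for chlorophyll synthesis, 0 and 0 for chlorophyll breakdown and 1 and 0 for each carotenoid list.

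Sugar and acid genes showed single changes. Sucrose and galactosyl-sugar metabolism numbered 4 higher and 2 lower of 43, starch metabolism 5 and 3 of 26, sugar transporters 4 and 5 of 32, and organic acid metabolism 9 and 1 of 56. The sucrose counts were 7 and 1 without 15 DAP replicate 1 and 4 and 5 without 15 DAP replicate 3. Without 25 DAP replicate 2 the number of sugar transporters lower was 2. ERD6-like 7 (MELO3C014417.2), from a family of vacuolar sugar exporters, was read at 27.4, 30.2 and 37.03 TPM at 15 DAP and 129, 191 and 145 TPM at 25 DAP, without overlap (log2 change 2.25, SE 0.25, adjusted p = 1.31e-05). An isoamylase (MELO3C030418.2), a starch debranching enzyme, was at 19.5, 11.5 and 13.8 TPM at 15 DAP and 37.8, 41.9 and 41.5 TPM at 25 DAP. On the log2 scale it moved by 1.41 (SE 0.19, adjusted p = 9.71e-05). Malate synthase (MELO3C002350.2), of the glyoxylate cycle, was at 3.74, 3.44 and 3.85 TPM at 15 DAP and 15.4, 12.8 and 16.6 TPM at 25 DAP. Its log2 change was 1.76 (SE 0.43, adjusted p = 0.0078).

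Sucrose synthase (MELO3C015552.2), which splits sucrose for use by the cell, was at 29.5, 21.98 and 9.22 TPM at 15 DAP and 93.4, 134 and 38.03 TPM at 25 DAP (log2 change 2.04, SE 0.42, adjusted p = 0.00276). Aconitate hydratase (MELO3C007942.2), which turns citrate into isocitrate, was at 201, 249 and 351 TPM at 15 DAP and 481, 476 and 483 TPM at 25 DAP (log2 change 0.88, SE 0.17, adjusted p = 0.00167). A bidirectional sugar transporter of the SWEET family (MELO3C002381.2) was at 0.05, 0.19 and 6.61 TPM at 15 DAP and 10.7, 8.62 and 31.2 TPM at 25 DAP, near 0 in 2 of the 15 DAP libraries (log2 change 2.86, SE 0.67, adjusted p = 0.00618). These 3 calls ended in the 6-library fit, with adjusted p = 0.128, 0.0853 and 0.147 in that order. The organic acid count was 4 higher without 15 DAP replicate 2, 15 DAP replicate 3 or 25 DAP replicate 2, and 14 without 15 DAP replicate 1.

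The aroma list numbered 4 higher and 7 lower of 34, and its summed level ran from 1846 to 2436 TPM at 15 DAP and from 6310 to 9921 TPM at 25 DAP. An alcohol dehydrogenase-like gene (MELO3C023685.2), from the enzyme family that interconverts aldehydes and alcohols, made up most of the sum at 25 DAP. It was read at 886, 498 and 615 TPM at 15 DAP and 6629, 8713 and 4978 TPM at 25 DAP, with a wide gap between the ages (log2 change 3.35, SE 0.50, adjusted p = 0.000206). In WT it fell from 1326 ± 314 TPM (SD, n = 3) to 83.5 ± 13.9 TPM (SD, n = 3), and the difference of steps was 7.31 (SE 0.71, adjusted p = 2.27e-07), and in the mutant it stood at 894 ± 92.9 TPM (SD, n = 3) at 35 DAP. Lipoxygenases, which oxidise polyunsaturated fatty acids, fell in the genes named by the rule. MELO3C027169.2 was at 71.96, 49.7 and 33.5 TPM at 15 DAP and 6.90, 5.17 and 5.17 TPM at 25 DAP (log2 change -2.91, SE 0.35, adjusted p = 2.73e-05). MELO3C027325.2 went from 58.01, 47.4 and 33.1 TPM to 7.58, 8.11 and 4.56 TPM (log2 change -2.60, SE 0.29, adjusted p = 1.53e-05), and MELO3C004247.2 from 32.8, 21.1 and 13.8 TPM to 1.39, 4.44 and 2.88 TPM (log2 change -2.59, SE 0.34, adjusted p = 6.39e-05). The descriptions do not tell these lipoxygenase genes apart, and reads of near-identical copies may have been divided among them.

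Fatty acid synthesis numbered 8 higher and 1 lower of 43, with 13 higher without 15 DAP replicate 1, 3 without either replicate 2 and 4 without 15 DAP replicate 3. A 3-oxoacyl-[acyl-carrier-protein] reductase (MELO3C009846.2), of the chain-lengthening cycle, was at 31.8, 27.6 and 30.8 TPM at 15 DAP and 73.00, 67.4 and 74.7 TPM at 25 DAP. This was a log2 change of 1.23 (SE 0.18, adjusted p = 0.000141). An acyl-[acyl-carrier-protein] desaturase (MELO3C008413.2), which sets the first double bond, was at 26.04, 10.9 and 6.63 TPM at 15 DAP and 66.9, 87.2 and 76.3 TPM at 25 DAP (log2 change 2.52, SE 0.49, adjusted p = 0.00173; 6-library fit adjusted p = 0.056), against a fall in WT (log2 change -4.46, SE 0.49, adjusted p = 2.56e-07), and the difference of steps was 6.98 (SE 0.69, adjusted p = 2.63e-07).

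**Figure D4:**
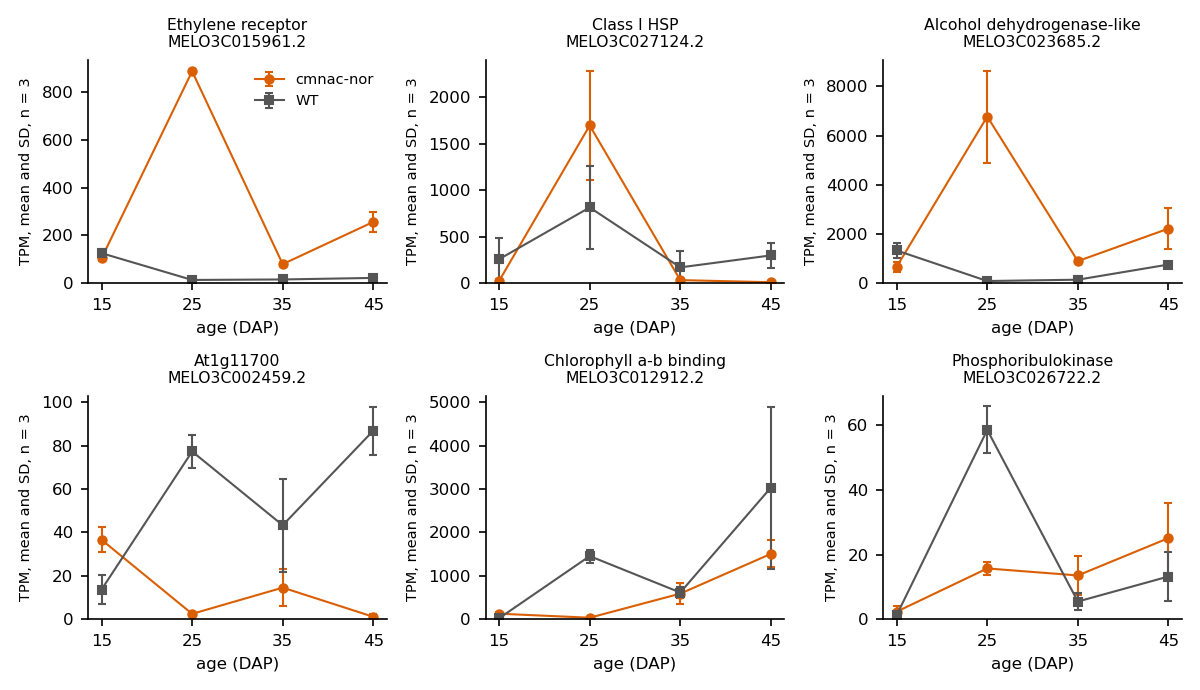
Mean TPM with SD (n = 3) of 6 genes at 15, 25, 35 and 45 DAP in cmnac-nor (orange circles) and WT (grey squares), on linear axes that start at 0. The ethylene receptor, the class I heat shock protein and the alcohol dehydrogenase-like gene were high at 25 DAP in the mutant and low again at 35 DAP, and At1g11700 and the chlorophyll a-b binding gene were low at 25 DAP in the mutant and high in WT.

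Several of the largest rises were in small heat shock proteins, chaperones that hold unfolded proteins under heat and other stress. Of 216 heat shock and chaperone genes, 31 were higher (14.4%) and 20 lower (9.26%), against 10.9% and 8.12% over all genes. These counts became 27 and 29 under median-of-ratios scaling, 33 and 31 under quantile normalization and 14 and 4 in the 6-library fit. The number lower was 11 without 25 DAP replicate 1 and 13 without 25 DAP replicate 2. Their summed level ran from 10260 to 11370 TPM at 15 DAP and from 17060 to 19790 TPM at 25 DAP. Much of the sum at 25 DAP came from 26 small heat shock proteins of classes I, II and IV, a subset drawn after the values were seen, of which 10 were higher, 4 lower and 12 not called. Their own sum was 460.5, 762.9 and 1054 TPM at 15 DAP and 8549, 8277 and 5716 TPM at 25 DAP. In WT 9 of these 26 were higher and 5 lower. The difference of steps was called with the mutant higher for 10 and lower for 5. Of the other 190 genes of the list, 21 were higher and 16 lower.

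A class I heat shock protein (MELO3C001614.2) was listed at 0 in 2 of the 15 DAP libraries and at 28.3 TPM in the other, and at 1175, 1456 and 929.7 TPM at 25 DAP (adjusted p = 5.82e-05). A further class I protein (MELO3C027124.2) was at 13.5, 13.9 and 43.2 TPM at 15 DAP and 2003, 2065 and 1013 TPM at 25 DAP, with no overlap (log2 change 6.25, SE 0.68, adjusted p = 1.13e-05), and at 31.9 ± 7.62 TPM (SD, n = 3) at 35 DAP. Its rise in WT was smaller (log2 change 1.88, SE 0.68, adjusted p = 0.022), and the difference of steps was 4.37 (SE 0.96, adjusted p = 0.00108). MELO3C034119.2 was at 39.4, 85.4 and 377 TPM at 15 DAP and 2862, 2303 and 2468 TPM at 25 DAP (log2 change 4.53, SE 0.73, adjusted p = 0.00039). MELO3C034100.2 was at 45.9, 9.91 and 75.1 TPM at 15 DAP and 1452, 1497 and 366 TPM at 25 DAP (log2 change 4.78, SE 0.89, adjusted p = 0.00137). The class IV protein MELO3C022116.2 was at 2.15, 2.80 and 9.79 TPM at 15 DAP and 140.4, 211 and 69.9 TPM at 25 DAP. The test gave a log2 change of 4.67 (SE 0.84, adjusted p = 0.000937). In each, the lowest 25 DAP library stood above the highest of 15 DAP, which the rule for the largest changes required. For MELO3C034119.2, 15 DAP replicate 3 was well above the other two. The calls of MELO3C034119.2 (adjusted p = 0.0525) and MELO3C034100.2 (adjusted p = 0.059) ended in the 6-library fit. Class I genes resemble each other in sequence, so the division of reads among them is uncertain.

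Some enzymes of the phenolic pathways rose. Phenylpropanoid and lignin genes numbered 9 higher and 3 lower of 64. Without 15 DAP replicate 3 the number lower was 17, and in the 6-library fit 1 was higher. Flavonoid genes numbered 7 higher and 0 lower of 25, and 4 higher without 15 DAP replicate 2, 25 DAP replicate 1 or 25 DAP replicate 3. A cinnamoyl-CoA reductase (MELO3C010188.2), which leads to lignin alcohols, was read at 96.8, 140.3 and 297 TPM at 15 DAP and 870.4, 887 and 1023 TPM at 25 DAP (log2 change 2.53, SE 0.28, adjusted p = 1.11e-05), against a fall in WT (log2 change -0.77, SE 0.28, adjusted p = 0.02), and the difference of steps was 3.30 (SE 0.39, adjusted p = 1.93e-06). Phenylalanine ammonia-lyase (MELO3C017809.2), the entry to the pathway, was at 0.54, 0.48 and 0.14 TPM at 15 DAP and 20.1, 29.6 and 4.25 TPM at 25 DAP (log2 change 3.45, SE 0.67, adjusted p = 0.00184; 6-library fit adjusted p = 0.0606). Dihydroflavonol-4-reductase (MELO3C016742.2) was at 34.5, 28.9 and 24.8 TPM at 15 DAP and 70.5, 61.5 and 66.7 TPM at 25 DAP. It was a log2 change of 1.16 (SE 0.13, adjusted p = 1.3e-05). A malonyl-CoA anthocyanin acyltransferase (MELO3C035293.2) was at 0.63, 1.02 and 4.39 TPM at 15 DAP and 48.6, 65.5 and 69.6 TPM at 25 DAP (log2 change 4.56, SE 0.65, adjusted p = 0.00013), and rose in WT as well (log2 change 3.77, SE 0.65, adjusted p = 5.35e-05).

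Of the other large rises, a BAHD acyltransferase DCR-like gene (MELO3C003230.2), whose Arabidopsis namesake is needed for cutin, was at 13.6, 33.95 and 47.6 TPM at 15 DAP and 869, 1148 and 908 TPM at 25 DAP, far above every 15 DAP library (log2 change 5.05, SE 0.43, adjusted p = 7.3e-07). One cytochrome P450 (MELO3C003385.2) was read at 5.04, 5.44 and 3.26 TPM at 15 DAP and 133, 147 and 84.9 TPM at 25 DAP (log2 change 4.44, SE 0.55, adjusted p = 3.33e-05). An F-box gene (MELO3C004213.2) was at 5.78, 1.95 and 2.22 TPM at 15 DAP and 118, 166 and 62.1 TPM at 25 DAP. The fitted log2 change was 4.75 (SE 0.57, adjusted p = 2.85e-05). A gene described as inhibitor protein (MELO3C018347.2) was listed at 0 in all 3 libraries of 15 DAP and at 47.2, 39.4 and 25.9 TPM at 25 DAP (adjusted p = 3.17e-07). Of 56 rind and cuticle marker genes, 9 were higher and 6 lower, and 5 were higher without 15 DAP replicate 3 or 25 DAP replicate 2. Their summed level ran from 700.8 to 930.4 TPM at 15 DAP and from 748.6 to 912.4 TPM at 25 DAP. These ranges overlap.

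Large falls outside these families included At1g11700 (MELO3C002459.2), with 35.4, 42.8 and 31.6 TPM at 15 DAP and 1.92, 2.72 and 2.61 TPM at 25 DAP. The ages did not overlap (log2 change -3.46, SE 0.45, adjusted p = 6.35e-05), which the rule for the largest changes required. In WT the gene rose (log2 change 2.54, SE 0.45, adjusted p = 8.14e-05), and the difference of steps was -5.997 (SE 0.64, adjusted p = 6.64e-07). MLP-like protein 28 (MELO3C006776.2) was at 26.1, 23.2 and 11.4 TPM at 15 DAP and 1.30, 0.65 and 0.73 TPM at 25 DAP. On the log2 scale it moved by -3.43 (SE 0.27, adjusted p = 2.88e-07). A magnesium transporter MRS2-like gene (MELO3C000817.2) was read at 23.7, 15.8 and 28.6 TPM at 15 DAP and listed at 0 in all 3 libraries of 25 DAP (adjusted p = 0.0371), and its call ended under 9 of the 16 alternatives run, with adjusted p up to 0.111.

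Defence and stress lists were mixed, set beside 10.9% higher and 8.12% lower over all genes. Pathogenesis-related proteins numbered 5 higher and 12 lower of 89, with 2 and 22 without 15 DAP replicate 3 and 8 and 9 without 15 DAP replicate 1. Peroxidases and antioxidant enzymes numbered 11 and 5 of 64, senescence and proteolysis genes 2 and 1 of 39, and metallothioneins 0 and 0 of 3. Without 25 DAP replicate 1 the peroxidase counts were 7 and 3. Superoxide dismutase 2 (MELO3C015351.2) was at 9.93, 7.62 and 7.94 TPM at 15 DAP and 22.5, 25.6 and 24.4 TPM at 25 DAP. Its log2 change was 1.41 (SE 0.17, adjusted p = 3.33e-05). The papain-type protease RD19a-like (MELO3C010982.2) was at 92.1, 96.5 and 130.2 TPM at 15 DAP and 427, 274 and 553 TPM at 25 DAP. This was a log2 change of 1.92 (SE 0.32, adjusted p = 0.000431). A peroxidase (MELO3C002457.2) fell, with 2884, 1493 and 708 TPM at 15 DAP and 277, 243 and 302 TPM at 25 DAP (log2 change -2.40, SE 0.44, adjusted p = 0.00103; 6-library fit adjusted p = 0.0713).

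Of 27 cysteine proteinase inhibitors, small proteins that block papain-type proteases, 7 were lower and 0 higher. Their summed level was 24650 TPM in 15 DAP replicate 1 and 58690 and 56630 TPM in the other two, and at most 22720 TPM at 25 DAP. MELO3C018580.2 was at 2407, 7540.3 and 3169 TPM at 15 DAP and 371, 479 and 361 TPM at 25 DAP (log2 change -3.27, SE 0.63, adjusted p = 0.00167). MELO3C002925.2 was at 277, 441 and 287 TPM at 15 DAP and 24.2, 33.6 and 48.2 TPM at 25 DAP. The test gave a log2 change of -3.23 (SE 0.45, adjusted p = 0.000107). The most abundant, MELO3C012701.2, was at 7662, 15720.1 and 14749 TPM at 15 DAP and 4265, 4121 and 5948 TPM at 25 DAP (log2 change -1.36, SE 0.36, adjusted p = 0.0137). Its call ended in the 6-library fit (adjusted p = 0.261), under quantile normalization (adjusted p = 0.108), without 15 DAP replicate 2 (adjusted p = 0.0689) and without 25 DAP replicate 2 (adjusted p = 0.0575). The number lower was 9 without 15 DAP replicate 1, 3 or 4 without any other library except 25 DAP replicate 3, and 2 in the 6-library fit.

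Markers of neighbouring tissues were measured in the same libraries. Of 25 phloem genes, 5 were lower, 1 was higher and 19 were not called, with a median of -0.49. Their summed level was 11540 TPM in 15 DAP replicate 1, 25330 and 26180 TPM in replicates 2 and 3, and from 5934 to 9134 TPM at 25 DAP. In both this sum and that of the cysteine proteinase inhibitors, replicate 1 was the lowest at 15 DAP. PHLOEM PROTEIN 2-LIKE A1 (MELO3C018681.2) was at 1724, 3814 and 2438 TPM at 15 DAP and 462, 479.8 and 684 TPM at 25 DAP. It was a log2 change of -2.24 (SE 0.38, adjusted p = 0.000583). The 26 kDa phloem lectin (MELO3C002874.2), a carbohydrate-binding protein of cucurbit phloem sap, was at 7865, 17793 and 20505 TPM at 15 DAP and 4555, 4153 and 6383 TPM at 25 DAP (log2 change -1.52, SE 0.42, adjusted p = 0.0171), and its call ended under 7 alternatives, with an adjusted p of 0.269 in the 6-library fit. The phloem count was 1 lower in the 6-library fit, with weights per group and without 25 DAP replicate 2. It was 2 without 15 DAP replicate 2 and 3 without 25 DAP replicate 1. In bulk tissue, fewer cells of a type and less RNA per cell cannot be told apart, and the part of phloem content in the other falls was not tested.

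Seed markers numbered 7 higher and 3 lower of 49, with 5 lower without 15 DAP replicate 3 and 1 without either replicate 2. Their summed level ran from 6240 to 8611 TPM at 15 DAP and from 4409 to 5496 TPM at 25 DAP. Of 9 seed storage genes in that list, 3 passed the filter, 3 were at 0 in all 6 libraries and none exceeded 8.90 TPM in any. The xylem search words matched 0 genes. Flesh has no single defining marker in these lists, so the labelled tissue was not checked beyond the markers of its neighbours.

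**Figure D5:**
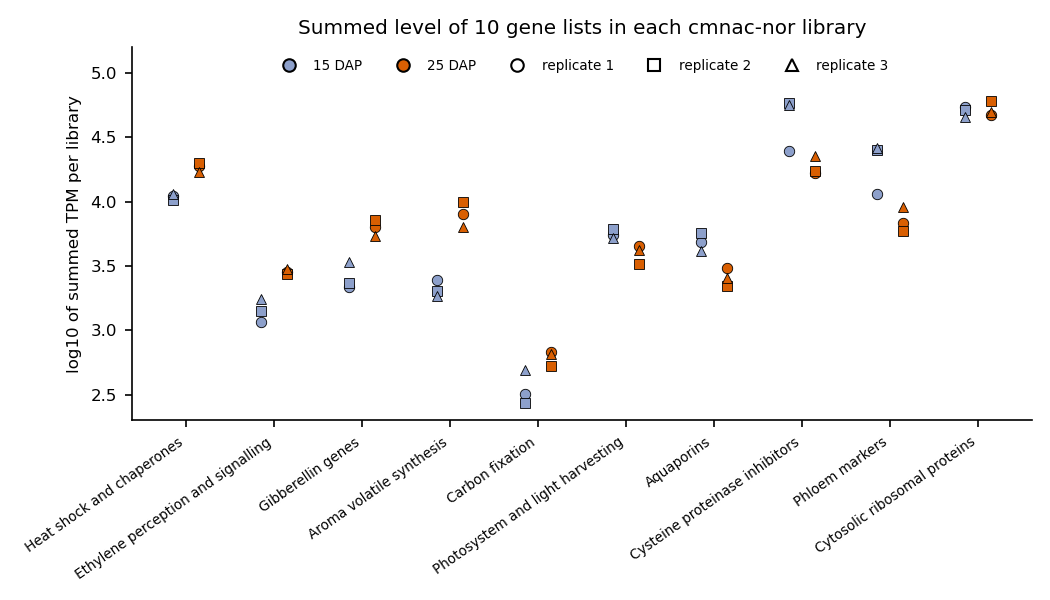
Summed TPM of 10 gene lists in each cmnac-nor library, as log10, with blue for 15 DAP, orange for 25 DAP and circles, squares and triangles for replicates 1, 2 and 3. Heat shock, ethylene perception, gibberellin and aroma sums were higher in all libraries of 25 DAP, aquaporin, phloem and cysteine proteinase inhibitor sums were lower in all of them, and 15 DAP replicate 1 lay apart from replicates 2 and 3 in the phloem and cysteine proteinase inhibitor sums.

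The genes with the largest differences between the steps of the genotypes, beyond those above, rose in the mutant and fell in WT. A BTB/POZ-like gene (MELO3C016232.2) was at 122, 223 and 267 TPM at 15 DAP and 754, 689.7 and 565 TPM at 25 DAP (log2 change 1.77, SE 0.46, adjusted p = 0.0113) and fell in WT to 0.81 ± 0.80 TPM (SD, n = 3), and the difference of steps was 9.01 (SE 0.64, adjusted p = 8.19e-09). A putative S-adenosylmethionine-dependent methyltransferase (MELO3C012305.2) was at 22.4, 13.4 and 28.3 TPM at 15 DAP and 172, 298 and 136 TPM at 25 DAP (log2 change 3.16, SE 0.45, adjusted p = 0.000141), and the difference of steps was 8.09 (SE 0.64, adjusted p = 2.33e-08). An acetyltransferase-like gene described as a low-quality model (MELO3C008281.2) was at 1.05, 6.24 and 2.76 TPM at 15 DAP and 82.9, 41.4 and 88.01 TPM at 25 DAP (log2 change 4.16, SE 0.64, adjusted p = 0.00026), and the difference of steps was 7.92 (SE 0.91, adjusted p = 1.45e-06). In the 6-library fit the mutant call of MELO3C016232.2 ended (adjusted p = 0.0518), and it also ended with weights per group (adjusted p = 0.0511).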

How the data were processed

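The unit is read as TPM, as deposited by the authors. No header or label names it, and the reading rests on the values, which sum to between 927159 and 963192 per library, so read depth is unknown. Per the submitters' processing notes, the tools were TopHat2, HISAT2, StringTie and Cufflinks. None of the sources used here gives their roles, the genome build, the annotation, the strand setting or the handling of shared reads. Gene names are the descriptions in the table.

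log2(TPM + 1) of 17658 genes was fitted with limma 3.58.1 (R 4.3.3, trended empirical Bayes) to all 24 libraries in 8 group means. The mutant step, the WT step and their difference were tested two-sided with Benjamini-Hochberg adjustment. The 49 gene lists are words searched in the descriptions, with misfits removed by description alone, and are given as counts and medians. Members, lists and tests were chosen with earlier results of these data known. The rule for named genes took CmNAC-NOR and the 10 largest called changes each way (10 TPM or more, no overlap). It also took up to 4 called genes a list by smallest adjusted p and the 10 most abundant at each age. Last came the 5 largest called differences of steps each way, among described genes also called for the mutant step. The text names 97 genes of these. The fit was tested on simulated data. With the spread of each group as measured, 16.5% of the calls of the 24-library fit were false. With equal spread 8.05% were. These shares are above the adjusted p threshold, so the main calls may hold more false ones than it states. For the 6 libraries alone the shares were 6.37% and 4.36%. With measured spread that fit recovered 28.4% of 2-fold changes, against 61.4% with all 24 libraries. Alternatives were pseudocounts of 0.1 and 5, filters, scalings, weights, a replicate block, no trend, the 6 libraries alone and each library left out.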

Additional observations from a re-analysis of the deposited data

Results flagged for a closer look

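The steps of the genotypes differed by the test of the difference for 8788 genes, and for each gene below whose difference the text prints. Values are the mutant step minus the WT step on the log2(TPM + 1) scale.

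Genes with the higher step in the mutant were gibberellin-regulated protein 2 (MELO3C011008.2) at 10.58, the BTB/POZ-like gene (MELO3C016232.2) at 9.01, the methyltransferase (MELO3C012305.2) at 8.09, the acetyltransferase-like gene (MELO3C008281.2) at 7.92 and the inhibitor protein (MELO3C018347.2) at 7.64. The alcohol dehydrogenase-like gene (MELO3C023685.2) followed at 7.31, the acyl-carrier-protein desaturase (MELO3C008413.2) at 6.98, the ACC oxidase (MELO3C004619.2) at 6.91, the class I heat shock protein (MELO3C001614.2) at 6.51 and the expansin-like gene (MELO3C003371.2) at 6.48. The ethylene receptor (MELO3C015961.2) was at 6.25, the pectin acetylesterases at 6.02 (MELO3C006917.2) and 5.54 (MELO3C016210.2), IAA16-like (MELO3C025308.2) at 5.21, the other class I heat shock protein (MELO3C027124.2) at 4.37, the ERF gene (MELO3C022358.2) at 3.92 and the cinnamoyl-CoA reductase (MELO3C010188.2) at 3.30.

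Genes with the lower step in the mutant were the chlorophyll a-b binding genes MELO3C002727.2 at -8.83 and MELO3C012912.2 at -8.23, the APRR2 gene (MELO3C003375.2) at -7.67, the aquaporin PIP2 gene (MELO3C013347.2) at -7.48, the MRS2-like gene (MELO3C000817.2) at -6.92, At1g11700 (MELO3C002459.2) at -5.997, the magnesium chelatase subunit (MELO3C023131.2) at -5.75 and the 9-cis-epoxycarotenoid dioxygenase (MELO3C016224.2) at -3.47. For MELO3C018347.2, MELO3C001614.2 and MELO3C000817.2, which were listed at 0 in some or all libraries of an age, the size depends on the pseudocount.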

How the results depend on the processing

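The count of genes called in the mutant was 705 in the fit to the 6 libraries alone and 1852 with weights per group, and between 1940 and 4019 without 1 library, with 1940 without 25 DAP replicate 2 and 2051 without 15 DAP replicate 2. Genes higher numbered 459 and 1064 in the first 2 of these and 1137 to 2687 without 1 library. Genes lower numbered 246 and 788, and 793 to 1706 without 1 library. At 2-fold or more, 691 were called with a pseudocount of 5, 431 in the 6-library fit and 914 to 1562 without 1 library. The 6-library fit has fewer libraries, and so has each fit that leaves one out; for the other settings the cause was not tested. The other alternatives kept these counts within 1.5 times, and counts for the WT step (9897 to 11621) and for the difference of steps (7907 to 9488) stayed within 1.5 times in every alternative run. The totals for the difference do not show its directions, which moved with the scale in some lists. Of 3366 main calls, 1850 were shared with the fit with weights per group. Under median-of-ratios scaling 45.3% of calls were higher, and under quantile normalization 47.7%, against 57.4%.

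Replicate numbers gave no clear pairing of the samples. Deviations from the group means of same-numbered libraries of the 2 ages correlated at 0.035, -0.037 and 0.197. Libraries of unlike numbers correlated between -0.159 and 0.121, so only the replicate 3 pair lay above all of them. With the replicate number as a block, 3103 genes were called, 1774 higher and 1329 lower.

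Of the 97 genes named, 95 were called, 61 kept their call and direction in every alternative run, 30 lost it in the 6-library fit and 6 without some library. Direction reversed in 2 uncalled genes. MELO3C006670.2 was at 0.03 without 15 DAP replicate 3 and at -0.38 without 15 DAP replicate 1. MELO3C003132.2 was at 0.60 under quantile normalization, 0.34 without 25 DAP replicate 2 and -0.44 without 25 DAP replicate 3. TPM keep no read depth, so low values cannot be given a counting error.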

Other observations

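A pair of called genes came from the replication and histone list, which numbered 4 higher and 4 lower of 66. DNA polymerase eta (MELO3C007012.2), which copies past damaged bases, was at 10.6, 6.69 and 15.6 TPM at 15 DAP and 81.3, 83.2 and 97.2 TPM at 25 DAP (log2 change 2.95, SE 0.21, adjusted p = 1.19e-07). The zeta processivity subunit (MELO3C019670.2) was at 9.68, 11.4 and 15.9 TPM at 15 DAP and 126, 147 and 174 TPM at 25 DAP (log2 change 3.51, SE 0.35, adjusted p = 4.17e-06). In both genes every 25 DAP library was above every 15 DAP library, and both kept their call under all alternatives run.

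A pair of the most abundant transcripts was not called. The translationally-controlled tumor protein (MELO3C006670.2) stood at 12462, 17149 and 21993 TPM at 15 DAP and 12746, 14959 and 17433 TPM at 25 DAP, and metallothionein-like protein 4A (MELO3C003132.2) at 12166, 15170.3 and 14357 TPM at 15 DAP and 15134, 6887 and 20251 TPM at 25 DAP. The former had a log2 change of -0.17 (SE 0.25, adjusted p = 0.695) and the latter of -0.11 (SE 0.50, adjusted p = 0.915), and the libraries of the ages overlapped in both genes.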
